A study of Mus musculus with 4 samples.

Results

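The genes described are 10 members of the Notch pathway: the receptors Notch1, Notch2, Notch3 and Notch4, the ligands Jag1, Jag2 and Dll1, the nuclear effector Rbpj, and the target genes Hes1 and Hey1. They were chosen by symbol, and 17 of the 22690 probe sets in the table carry one of these symbols alone. RNA levels were measured in YAMC cells, a mouse line derived from the colon epithelium of young adults that is known to be conditionally immortalised by a temperature-sensitive viral large T antigen, so that its cell cycle depends on culture conditions the labels do not give. The total RNA was profiled on 4 arrays of the mouse 430A design. On 2 arrays the cells had no treatment, and on the other 2 they had been kept for 16 h in conditioned medium of Lactobacillus GG (LGG), which is a probiotic bacterium. By their titles the arrays carry 2 dates, here date 1 and date 2, with 1 array of each group per date. A control with unconditioned medium was not analysed here, and the labels do not say whether separate cultures were used, so the p-values measure only the spread between these arrays, which may be technical.

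Notch receptors are single-pass membrane proteins that are cut when a ligand of the Jagged or Delta-like families on a neighbouring cell binds them. The released intracellular domain enters the nucleus, joins the DNA-binding protein RBPJ and turns on genes such as Hes1 and Hey1, which encode basic helix-loop-helix repressors. In the intestinal crypt this pathway is known to keep progenitors dividing and to direct cells to the absorptive fate, by way of HES1 holding down the secretory factor Atoh1. Ligand and receptor also act within one cell, where they tend to inhibit each other.

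Only 1 of the 12 member probe sets that could be compared passed the test, a Notch1 probe set that fell. That is 8.33% of the member probe sets, beside 6.55% of the 10333 probe sets tested on the array, so the count of members is near the background (1 lower, beside 3.86% of all probe sets, and 0 higher, beside 2.69%). The other 11 probe sets, for Notch1 (its second), Notch2, Notch3, Jag1, Jag2, Dll1, Rbpj and Hes1, did not pass at an adjusted p under 0.05 (limma with the date as a block, Benjamini-Hochberg over all probe sets tested). Of the 5 remaining probe sets, 3 (for Notch4, Jag1 and Hey1) were below a mean intensity of 101 and were not tested, and 2 (for Notch2 and Notch4) had no value at date 1.

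The fitted log2 change was positive for 7 and negative for 5 of the 12 member probe sets, with a median of 0.11, against a median of 0.01 over all probe sets tested. The median size of the change, whatever its sign, was 0.40 for the members and 0.25 for all probe sets. These medians were not matched for intensity, and their difference was not tested. Some members, such as Notch2 1451889_at (mean 110) and Jag1 1421106_at (108), lay just above the filter. Both LGG arrays lay above both untreated arrays on 3 member probe sets (25.0%, beside 23.4% of all probe sets) and below them on 4 (33.3%, beside 23.6%). On the other 5 the groups overlapped. Log2 values were taken of the intensity plus 25.2, a scale on which the change of a dim probe set is understated. Intensities of different probe sets are not comparable as levels, because each binds its own probes, and every comparison of members is therefore within a probe set.

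**Figure D1:**
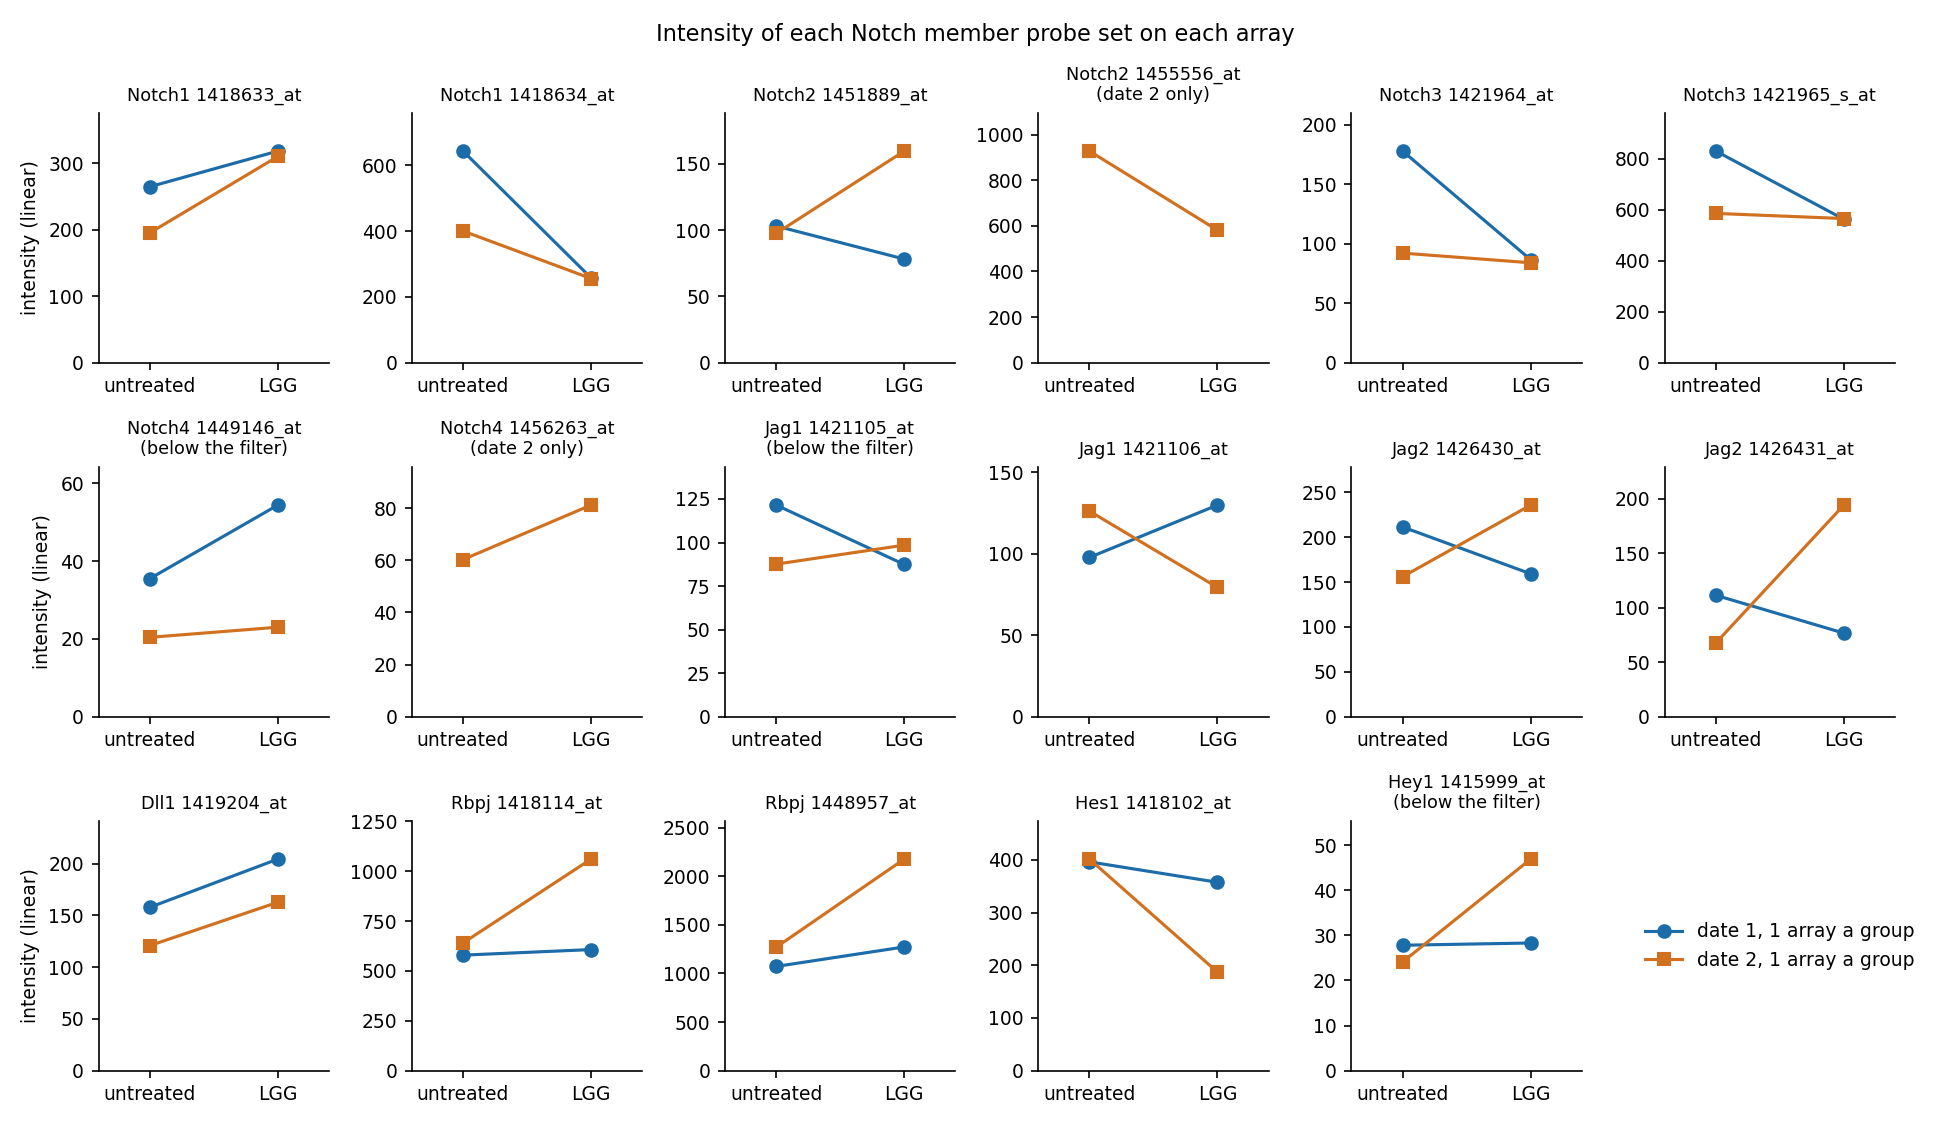
Intensity (linear scale, from 0) of the 17 member probe sets on each array, with a line joining the untreated and the LGG array of 1 date and no error bar, since each point is 1 array. The lines of Notch1 1418634_at run down at both dates and those of Notch1 1418633_at run up, while the lines of Jag1 1421106_at and of both Jag2 probe sets cross.

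The 2 probe sets of Notch1, a receptor that maintains crypt progenitors, had changes of opposite sign. Probe set 1418634_at measured 642.8 on the untreated and 257.5 on the LGG array of date 1, and 399.9 and 255.7 at date 2. Both untreated arrays were higher than both LGG arrays, and the LGG arrays were nearly equal while the untreated arrays were not. Its mean intensity fell from 521 ± 172 to 257 ± 1.27 (SD, n = 2 arrays per group), and the fitted log2 change of -0.92 ± 0.25 (SE) passed by limma (adjusted p = 0.0459), 1.89-fold lower with LGG. The ratio of untreated to LGG was 2.50 at date 1 and 1.56 at date 2. The call was lost without the date as a block (limma, adjusted p = 0.163). Fits on the arrays that remain after 1 is dropped have no block either. They cannot separate the effect of the array on the call from that of the block, so only effect sizes are given. Dropping untreated replicate 1 gave a log2 change of -0.59, and dropping untreated replicate 2 gave -1.25. Dropping an LGG array gave -0.92 (replicate 1) or -0.91 (replicate 2).

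Probe set 1418633_at, which the platform annotation ties to the same Notch1 transcript record, measured 264.6 untreated and 318.2 with LGG at date 1, and 195.3 and 310.1 at date 2. Here both LGG arrays were the higher ones. The means were 230 ± 49.0 and 314 ± 5.73 (SD, n = 2 arrays per group) and the log2 change was 0.42 ± 0.25, which did not pass (limma, adjusted p = 0.376). With 1 array left out the change was 0.23 without untreated replicate 2, 0.62 without untreated replicate 1, 0.41 without LGG replicate 1 and 0.44 without LGG replicate 2. Notch1 as a gene therefore has 1 probe set that fell and 1 whose change has the opposite sign and did not pass.

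The disagreement was of like size at both dates. Within each array, the log2 value of 1418634_at minus that of 1418633_at was 1.20 and 0.95 in untreated cells at dates 1 and 2, against -0.28 and -0.26 with LGG. The difference thus shifted by -1.49 at date 1 and -1.20 at date 2, a mean of -1.34. An exact two-sided permutation test of 2 against 2 arrays cannot give a p under 0.333, so no p is given for this shift. Among the 2037 genes with several probe sets tested, 656 (32.2%) had fitted changes of opposite sign, but the distance between the highest and the lowest change was as large as that of Notch1 in 22 genes (1.08%), Notch1 included, against a median distance of 0.26. Such a distance describes unequal fitted changes, which were not tested against each other. It does not tell which of the signals follows the Notch1 message.

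A measure of RNA integrity, the ratio of the 3' to the 5' control probe sets, was looked at beside this pair. For Gapdh it was 0.805 untreated and 0.931 with LGG at date 1, and 0.784 and 0.768 at date 2, and for Actb it was 1.11 and 1.20, then 1.08 and 1.05. Both ratios were higher with LGG at date 1 and slightly lower at date 2, with 1 array of each group per date. Where the probes of the Notch1 probe sets lie along the transcript was not analysed here, and any part of RNA integrity in the pair was not tested.

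**Figure D2:**
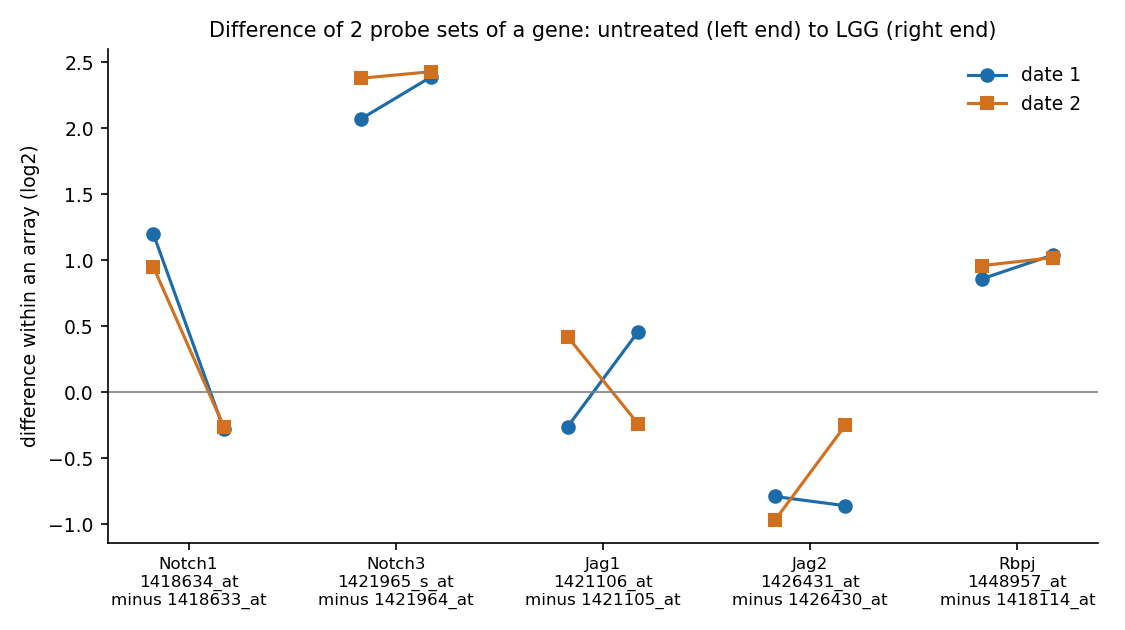
Difference in log2(intensity + 25.2) between 2 probe sets of 1 gene within an array, for the 5 member genes with 2 probe sets measured on all arrays; each line runs from the untreated (left end) to the LGG array (right end) of 1 date. The Notch1 difference goes from 1.20 and 0.95 to -0.28 and -0.26, while those of Notch3 and Rbpj shift by at most 0.32. That of Jag1 shifts by 0.72 at date 1 and -0.67 at date 2, and that of Jag2 by -0.06 and 0.71.

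Upstream sequences of 8 of the 10 members, all except Hes1 and Hey1, were found in the RefSeq promoter table of build GRCm38.p6, and 3 are shown: that of Notch1, whose probe sets disagree, that of Notch3, whose probe sets agree, and that of Rbpj, whose product binds DNA for the pathway. Each holds the 250 bases before the annotated transcript start, in lower case, with any match to the core of the RBPJ motif in capitals. The letters searched were TGGGAA on the given strand and TTCCCA for the other strand.
Notch1, chr2:26503823-26504072, minus strand: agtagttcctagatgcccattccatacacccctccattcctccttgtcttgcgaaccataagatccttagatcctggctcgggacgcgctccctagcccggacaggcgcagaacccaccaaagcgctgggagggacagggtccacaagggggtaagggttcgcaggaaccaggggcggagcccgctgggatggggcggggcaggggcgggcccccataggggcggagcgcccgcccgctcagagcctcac
Notch3, chr17:32166891-32167140, minus strand: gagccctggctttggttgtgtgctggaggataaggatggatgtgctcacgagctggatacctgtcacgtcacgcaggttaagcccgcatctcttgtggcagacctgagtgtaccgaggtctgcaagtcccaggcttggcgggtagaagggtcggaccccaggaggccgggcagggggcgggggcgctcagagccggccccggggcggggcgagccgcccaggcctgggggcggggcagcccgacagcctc
Rbpj, first of 2 annotated starts, chr5:53590096-53590345, plus strand: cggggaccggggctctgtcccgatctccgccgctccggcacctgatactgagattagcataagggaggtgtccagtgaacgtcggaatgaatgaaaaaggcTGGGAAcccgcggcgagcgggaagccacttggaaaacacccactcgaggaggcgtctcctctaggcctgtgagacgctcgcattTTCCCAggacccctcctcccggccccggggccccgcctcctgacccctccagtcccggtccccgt
The Notch1 and Notch3 windows hold no match and the Rbpj window holds 2, beginning 149 bases (given strand) and 65 bases (other strand) before the start. The window of the second Rbpj start, which overlaps the first, holds 1 of these matches. None of the other member windows has one, so 2 of the 10 member windows hold the letters, beside 21.6% of all 32851 windows of this length in the table. A match describes the letters and no binding was measured.

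Both probe sets of Notch3, a receptor best known from mural cells of blood vessels, were lower with LGG at each date without passing. Probe set 1421965_s_at measured 829.4 untreated and 562.4 with LGG at date 1, and 585.1 and 564.9 at date 2. Probe set 1421964_at measured 177.9 and 86.6, then 92.1 and 84.0. As with the Notch1 probe set that fell, the LGG arrays were nearly equal and the untreated array of date 1 was the high one. The log2 changes were -0.29 ± 0.23 (limma, adjusted p = 0.524) and -0.48 ± 0.30 (adjusted p = 0.403). Without untreated replicate 1, the untreated array of date 1, they were -0.05 and -0.09.

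Notch2, a receptor that acts together with Notch1 in the crypt, had 1 probe set on all arrays and 1 with values at date 2 only. The first, 1451889_at, measured 103.0 untreated and 78.1 with LGG at date 1, and 97.5 and 159.5 at date 2, so the ratio changed sign between dates (log2 change 0.14 ± 0.31, limma, adjusted p = 0.854). The other, 1455556_at, measured 927.8 on the untreated and 581.0 on the LGG array of date 2, a ratio of untreated to LGG of 1.60 with 1 array a group and so no test. At date 2 the 2 Notch2 probe sets therefore had opposite signs, with log2 ratios of 0.59 and -0.65.

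Notch4, a receptor largely of endothelium, was dim. Probe set 1449146_at measured 35.5 and 20.4 untreated and 54.4 and 23.0 with LGG at dates 1 and 2. Probe set 1456263_at measured 60.3 untreated and 81.2 with LGG at date 2. No detection calls were used, so whether these values lie above background is not known.

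Of the ligands, the 2 of the Jagged family differed between dates in the sign of their ratio. Jag1, a major ligand of Notch1 and Notch2, measured 97.7 untreated and 129.8 with LGG at date 1 on probe set 1421106_at, but 126.1 and 79.3 at date 2. Its other probe set, 1421105_at, measured 121.5 and 87.4, then 87.6 and 98.5, the reverse order, and its mean of 98.8 was just below the filter. The log2 change of 1421106_at was -0.10 ± 0.30 (limma, adjusted p = 0.898).

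Jag2, the other Jagged ligand, was lower with LGG at date 1 and higher at date 2 on both of its probe sets. Probe set 1426430_at measured 211.5 and 159.3 at date 1, then 156.0 and 235.9 at date 2. Probe set 1426431_at measured 111.3 and 76.6, then 67.6 and 194.0, where the LGG array of date 2 stood well above the others. The log2 changes were 0.08 ± 0.28 and 0.41 ± 0.36 (limma, adjusted p = 0.910 and 0.578).

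Dll1, a Delta-like ligand carried by secretory progenitors in the gut, had the most even ratio at the 2 dates. It measured 157.9 untreated and 204.5 with LGG at date 1, and 120.9 and 162.8 at date 2, which is 1.30-fold and 1.35-fold higher. Both LGG arrays lay above both untreated arrays, by a log2 change of 0.35 ± 0.26 that did not pass (limma, adjusted p = 0.510). That change was 0.18 without untreated replicate 2 and 0.20 without LGG replicate 1, against 0.51 without untreated replicate 1 and 0.49 without LGG replicate 2.

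Rbpj, which encodes the DNA-binding partner of all Notch receptors, was highest on the LGG array of date 2 on both of its probe sets. Probe set 1448957_at measured 1072.1 untreated and 1272.5 with LGG at date 1, and 1270.2 and 2176.0 at date 2. Probe set 1418114_at measured 579.1 and 606.9, then 640.2 and 1060.5. The 2 probe sets kept their distance on every array (0.86 to 1.04 on the log2 scale), unlike those of Notch1. The log2 changes were 0.50 ± 0.21 and 0.39 ± 0.23 (limma, adjusted p = 0.182 and 0.394). Without LGG replicate 1, the LGG array of date 1, 1448957_at had a log2 change of 0.88. Without LGG replicate 2 the changes of the 2 probe sets were 0.12 and 0.00.

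Hes1, the repressor through which Notch limits the secretory fate, measured 396.4 untreated and 357.7 with LGG at date 1, and 401.7 and 187.1 at date 2. The untreated arrays were nearly equal, and the LGG array of date 2 was the low one. The means were 399 ± 3.75 and 272 ± 121 (SD, n = 2 arrays per group), and the fitted log2 change of -0.57 ± 0.27 did not pass (limma, adjusted p = 0.247). Without LGG replicate 1 the change was -1. Without LGG replicate 2 the change shrank to -0.15. The array with the lowest Hes1 was thus also the one with the highest Rbpj. That same array was the highest for Notch2 1451889_at and both Jag2 probe sets and the lowest for Jag1 1421106_at. It is 1 array, and a relation between Hes1 and Rbpj was not tested.

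Hey1, a related repressor, was dim, with 27.8 and 24.1 in untreated cells at dates 1 and 2, against 28.3 and 46.9 with LGG. With no filter on dim probe sets its log2 change was 0.28 (limma, adjusted p = 0.689). The single probe sets of Hes1 and Hey1 mean that neither target has a second reading on these arrays.

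**Figure D3:**
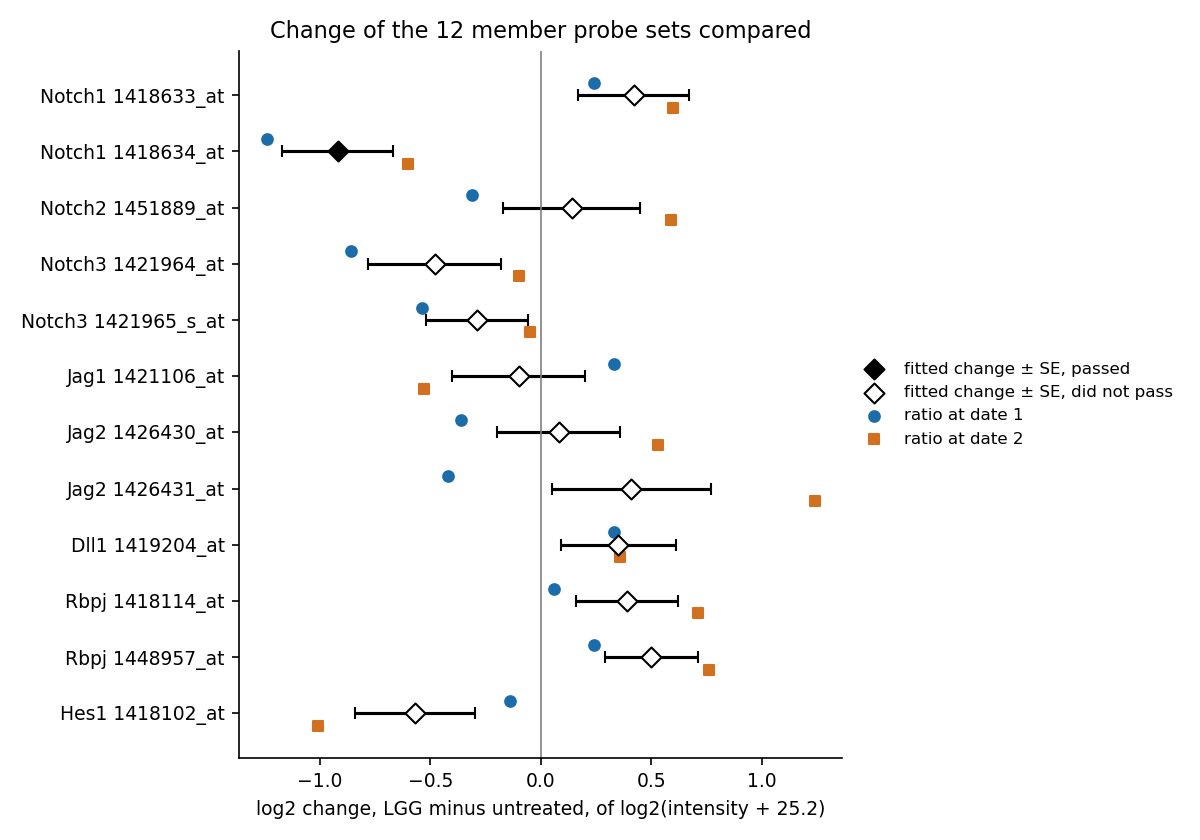
Log2 change with LGG of the 12 member probe sets compared (horizontal axis): diamonds are the fitted change with its SE, circles and squares the ratios at date 1 and date 2. The filled diamond, Notch1 1418634_at at -0.92, is the only one that passed, and the circle and the square lie on opposite sides of 0 for Notch2, Jag1 and both Jag2 probe sets.

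No member passed the comparison of the dates. In the same fit 0 of the 12 member probe sets differed between dates (limma, adjusted p of at least 0.384; 1 probe set at an unadjusted p under 0.05), beside 0.513% of all probe sets tested. The sizes of the date change were 0.06 to 0.50 on the log2 scale, the largest being that of Rbpj 1448957_at, 0.50 ± 0.21 higher at date 2. On 4 of the 12 member probe sets (33.3%) the ratio of LGG to untreated had opposite signs at the 2 dates, beside 35.8% of all probe sets.

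The genes closest in pattern to Notch1 1418634_at over the 4 arrays, by Euclidean distance of centred log2 values among genes by their brightest probe set, were Kank3 (0.13), Has2 (0.16) and Ubxn11 (0.17). Their log2 changes were -0.80, -0.85 and -0.76, and none of the 3 passed (limma, adjusted p = 0.140, 0.102 and 0.161). With 4 arrays such likeness describes 4 values only.

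Around the members, 91 further genes of the pathway were listed by role, of which 51 were tested, 23 were below the filter, 4 had no value at date 1 and 13 were not analysed here. With LGG 2 rose (3.92%, beside 3.01% of the 6952 genes tested) and 6 fell (11.8%, beside 3.50%), and 43 did not pass. The 8 calls are 15.7% of these genes, beside 6.5% of all genes, for lists drawn up with earlier results of these data known. Their median log2 change was -0.08, against 0.03 for all genes. With the arrays scaled to a common median, 2 of the 51 genes rose and 2 fell. In that fit 456 of the 10333 probe sets tested were called, which counts probe sets and not genes. Without the date as a block 0 of the 51 genes were called. Of the 10333 probe sets, 97 were called without the block, against 677 with it. Fits that left out an untreated array also lack the block. They called nothing among all probe sets tested, so they say nothing particular about these genes. With an LGG array left out the block is missing too, so for such fits only effect sizes are given below.

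Of 4 glycosylation genes tested, 1 fell and 0 rose. Poglut1, which adds O-glucose to Notch and is needed for its signalling, fell. At dates 1 and 2 it measured 1128.2 and 960.7 in untreated cells, against 492.5 and 575.3 with LGG (log2 change -0.94 ± 0.22, limma, adjusted p = 0.0247), with no overlap of the groups. Without the date as a block its adjusted p was 0.091 (limma). Lfng, a Fringe enzyme that shifts receptors toward Delta-like ligands, had a log2 change of -0.47 and Pofut1, which adds O-fucose, -0.21, and neither passed.

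Of 6 cleavage genes tested, 1 fell and 0 rose. Adam10, the protease that makes the ligand-dependent cut, fell. It measured 1644.6 and 1523.8 untreated and 525.5 and 1201.8 with LGG on probe set 1450105_at (-0.97 ± 0.27, limma, adjusted p = 0.0452). The second probe set of Adam10, 1450104_at, had a change of the same sign and just missed (-1.19 ± 0.34, adjusted p = 0.0544). The fall was mainly that of date 1, and without LGG replicate 1 the change of 1450105_at was -0.39, while without LGG replicate 2 it was -1.55. Without the block its adjusted p was 0.229 (limma). The related protease Adam17 (0.39 on its brightest probe set, 0.20 and 0.03 on its others) and the gamma-secretase subunit Psenen (0.09) did not pass.

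Among 11 ubiquitin ligases and endocytic regulators, 1 rose and 1 fell. Dtx3, a member of the Deltex family of ubiquitin ligases, rose from 394.9 to 698.4 at date 1 and from 201.0 to 912.2 at date 2 (1.42 ± 0.29, limma, adjusted p = 0.0106). Nedd4, a ubiquitin ligase with many substrates besides Notch, fell from 5339 to 2579.1 and from 4926.5 to 3804.6 on its brightest probe set (-0.71 ± 0.17, adjusted p = 0.0281). Its other 2 probe sets fell too, with log2 changes of -1.12 and -0.66 (adjusted p = 0.00485 and 0.0226). On its brightest probe set the change of Nedd4 was -0.43 without LGG replicate 1 and -0.98 without LGG replicate 2. With all arrays and no block its adjusted p was 0.159 (limma). Mib2, a ligase that acts on the ligands, did not pass (log2 change 0.62).

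Of 13 coactivators and corepressors, 1 rose and 1 fell. Cir1, a corepressor that joins RBPJ to histone deacetylases, rose from 114.5 to 338.9 at date 1 and from 173.7 to 363.5 at date 2 (1.17 ± 0.26, limma, adjusted p = 0.0161). Tle3, a Groucho corepressor recruited by Hes proteins, fell from 565.1 to 321.8 and from 491.3 to 65.2 on probe set 1419655_at (-1.64 ± 0.34, adjusted p = 0.0122). Without LGG replicate 1 the change of Tle3 was -2.61 and without LGG replicate 2 it was -0.67. The other 2 Tle3 probe sets had changes of -0.79 and -0.88 that did not pass. Maml1, the Mastermind coactivator, had a log2 change of -0.72 that did not pass (limma, adjusted p = 0.0720). Its change was -0.99 without LGG replicate 1 and -0.46 without LGG replicate 2. Its other probe set, 1452188_at, had a change of -0.21 that did not pass (adjusted p = 0.689).

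Of the other Hes and Hey family genes and feedback genes, 8 of 10 were below the filter, among them Hes5, Hey2 and Heyl. Bhlhe40, a related repressor that also answers to many other signals, fell from 509.0 to 293.9 and from 981.9 to 428.6 (-0.95 ± 0.23, limma, adjusted p = 0.0288). Its log2 change stayed negative whichever array was dropped, from -1.4 (untreated replicate 1 dropped) to -0.49 (untreated replicate 2 dropped). Nrarp, a feedback inhibitor induced by Notch, did not pass, and its log2 ratio was -0.51 at date 1 but 0.36 at date 2.

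Of 8 other textbook targets tested, 0 passed (limma), and their median log2 change was 0.11. The largest changes were those of Nfkb2 (0.70), Gata3 (0.54) and Snai2 (-0.45), and Myc, a target in progenitor cells, had 0.24. Of 4 genes of the secretory lineage tested, Klf4, a goblet cell and growth arrest factor, fell from 1424 to 1006.7 and from 982.9 to 349.4 on probe set 1417394_at (-0.96 ± 0.25, adjusted p = 0.0348). Without LGG replicate 2 its change was -0.23, and without LGG replicate 1 it was -1.69. Its other probe set, 1417395_at, had a change of -0.69 and did not pass. Atoh1, the gene HES1 represses, measured 136.5 and 113.7 untreated and 85.7 and 83.7 with LGG (-0.45 ± 0.28, adjusted p = 0.414), with both LGG arrays below both untreated arrays. Of 3 other ligands tested 0 passed (limma), with log2 changes of 0.21 for Dlk2 and -0.08 for Dlk1.

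**Figure D4:**
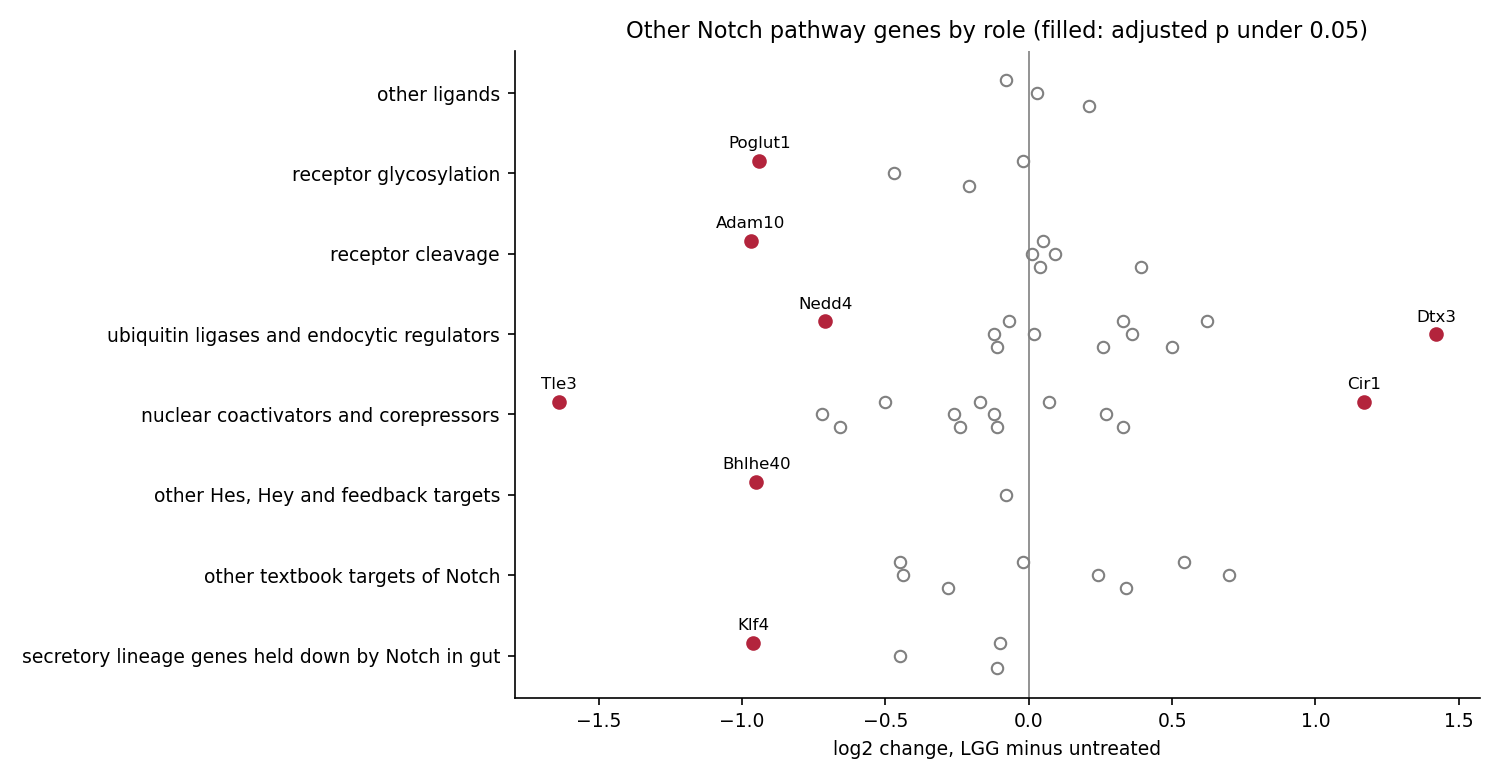
Fitted log2 change with LGG (horizontal axis) of the other Notch pathway genes tested, 1 point a gene by its brightest probe set, in rows by role; filled and named points had an adjusted p under 0.05 by limma. The 6 genes that fell and the 2 that rose lie in 6 of the 8 roles.

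Across the series, the trimmed mean intensity of an array lay between 500.1 and 513.5. Of 11 colon epithelial markers, Krt8, Krt18 and Krt19 were above the filter and 8 were below it, among them Epcam (6.0 to 9.0), Cdh1 (8.7 to 41.8), Vil1 (1.7 to 10.5) and Cdx2 (4.2 to 35.6), so these defining markers of colon epithelium were low in every library. At dates 1 and 2 the summed intensity of the epithelial list was 2414 and 3285 untreated and 3382 and 2888 with LGG. Of 8 fibroblast markers 5 were tested and Dcn fell (-0.91 ± 0.13, limma, adjusted p = 0.0014), and the summed intensity, without Col3a1, was 32632 and 27763 untreated and 24380 and 22786 with LGG. Dcn itself, a large part of that sum, measured 7734.1 and 8376.2 untreated and 4084.9 and 4473.8 with LGG. The other 4 tested did not pass, with log2 changes of -0.04 for Col1a1, -0.59 for Col1a2, -0.25 for Vim and -0.44 for Pdgfra. Below the filter, Pdgfrb was higher and Thy1 lower with LGG at both dates. Of 6 endothelial markers Kdr was tested and rose (1.29), from 136.2 and 128.9 untreated to 396.5 and 329.2 with LGG, and the list with it summed to 473 and 370 untreated and 550 and 509 with LGG. The other 5 were below the filter, and of them Tek, at 149.4 and 96.1 untreated and 36.8 and 51.4 with LGG, and Pecam1, at 48.0 and 34.1 untreated and 12.1 and 21.3 with LGG, were lower with LGG at both dates. Cdh5 (41.6 to 64.7) and Tie1 (1.5 to 3.8) were low too. Of 5 leukocyte markers measured Cd68 was tested and rose (1.06), from 146.0 and 101.2 untreated to 274.1 and 289.0 with LGG. It was a large part of the list sums, 358 and 219 untreated and 526 and 452 with LGG. The other 4 were below the filter. Of them Ptprc (15.4 to 37.2) and Adgre1 (68.9 to 122.4) were lower with LGG at date 1 and higher at date 2. Cd3e was higher with LGG at date 1 only, and Itgam at both dates. The smooth muscle list (0 of 3 tested passed) summed to 8267 and 6773 untreated and 8347 and 6499 with LGG. The list of glia and neurons (0 of 1) summed to 257 and 254 untreated and 363 and 386 with LGG. In it Tubb3, below the filter, measured 62.5 and 44.9 untreated and 108.4 and 143.4 with LGG. Sox10 and S100b were higher with LGG at both dates, and Elavl4 was higher at date 1 but lower at date 2. Any part of these markers in the Notch values was not tested, and in bulk RNA fewer cells of a type and less RNA per cell cannot be told apart.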

How the data were processed

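Per the labels, RNA was extracted by Trizol, cleaned with a Qiagen kit and run on mouse 430A arrays. The authors deposited linear intensity values, 1 column per array; software, scaling and filters are not given in the sources used here. Trimmed means (without the lowest and highest 2%) lay between 500.1 and 513.5, so values were used as deposited. Both arrays of date 1 have no value for the same 6307 of 22690 probe sets. After 64 control probe sets were set aside, 16319 were measured on each of the 4 arrays. Tests were run on the 10333 whose mean reached 101, which is 20% of the trimmed mean.

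Groups came from the titles, and the dates in the titles pair the arrays. As a check, the change from date 1 to date 2 was compared between groups, and its correlation across probe sets was 0.271. Values were taken as log2(intensity + 25.2), where 25.2 is 5% of the trimmed mean, and fitted in R 4.3.3 by limma 3.58.1, with terms for group and date in lmFit, a trended prior in eBayes, two-sided tests, Benjamini-Hochberg over all probe sets tested, threshold 0.05. The fit has 1 residual and 12.5 prior degrees of freedom, so p-values and SEs rest mostly on variance shared across probe sets. Fits that leave out an array have no block, since the block would leave no residual degree of freedom, and with 1 array left in a group that array is assumed to vary like the others.

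Probe sets were named from the platform annotation, by single symbols only; 0 member probe sets carry several. Members were kept by probe set, and other genes were represented by their brightest. The members and lists were chosen with earlier results of these data known. From each list the text names the genes that passed and up to 3 others chosen by size among those whose 2 ratios had one sign. Hes5 and the other genes named as below the filter, Nrarp, Myc and the markers named were chosen after their values were seen. Alternatives tried were the fit without the block, other scalings, pseudocounts, filters and variance prior, and leaving out each array. Upstream sequences are from RefSeq, build GRCm38.p6. Figures were drawn with matplotlib.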

Additional observations from a re-analysis of the deposited data

Results flagged for a closer look

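4 member probe sets had ratios of LGG to untreated of opposite sign at the 2 dates, each date holding 1 array per group, and the difference between dates was not tested. The log2 ratios at dates 1 and 2 were -0.31 and 0.59 for Notch2 1451889_at, 0.33 and -0.53 for Jag1 1421106_at, -0.36 and 0.53 for Jag2 1426430_at, and -0.42 and 1.24 for Jag2 1426431_at. Opposite signs were seen on 35.8% of all probe sets tested. The 2 Jag2 probe sets turned the same way.

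Notch4 1456263_at, which entered no comparison because it has no value at date 1, measured 81.2 on the LGG array and 60.3 on the untreated array of date 2, with 1 array a group.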

How the results depend on the processing

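The call of Notch1 1418634_at lay close to the threshold. It was kept under quantile normalization and with a pseudocount of 20% of the trimmed mean. It was lost, with a log2 change of -0.92, without the replicate block (adjusted p = 0.163), with no filter on dim probe sets (0.207), with the filter raised to 50% (0.0544) and without the intensity trend (0.0735), with -0.90 under median scaling (0.061) and with -0.97 at a pseudocount of 1% (0.0581). With 1 array left out the log2 change was -1.25 to -0.59. Those fits lack the block, so they cannot tell whether the call depends on the array left out. The number of member probe sets called was 0 under these 6 settings. Over the fits with 1 array left out, the change of Rbpj 1448957_at was 0.12 to 0.88. In each of the 6 settings, 1 or 2 member probe sets had an unadjusted p under 0.05 by limma. Among other pathway genes, 8 were called, against 0 without the replicate block, 0 with no filter, 4 under median scaling, 3 without the trend and 0 to 5 with 1 array left out. Over all probe sets, 677 were called with the block, 97 without it and 0 with no filter (2296 at an unadjusted p under 0.05). Some changes reversed with 1 array left out, none of which passed in any fit: they ran from -0.38 to 0.18 for Jag1 1421106_at, -0.17 to 0.33 for Jag2 1426430_at, -0.14 to 0.96 for Jag2 1426431_at, -0.28 to 0.56 for Notch2 1451889_at, -0.39 to 0.24 for Dlk1 and -0.50 to 0.09 for Pofut1. For date 2 against date 1, the number of member probe sets called by limma was 0 in each setting with the block. Fits with 1 array left out had no block and fewer samples; otherwise the cause was not tested. The number of arrays limits precision, and signal over background is not known.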
